A study of Mus musculus with 64 samples.

Results

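Hippocampus was compared between male BALB/c mice exposed for 9 weeks to Unpredictable Chronic Mild Stress (UCMS), in which mild stressors change without a pattern and which serves as a model of depression, and mice without stress. The comparison holds 16 of the 64 libraries of the series: all 8 UCMS and all 8 control libraries made from hippocampus, read across the 15573 genes of the hippocampus table. Every animal was 28 weeks old. Each library came from 1 animal, control animals stayed unstressed throughout, and no transgene or drug is named for either group. In the labels the animal code of UCMS replicate 8 starts with BS, and those of the other UCMS animals start with S. What the codes mean is not given. Collection fell 14 to 16 hours past the final stressor, between ZT12.5 and ZT14.5 (hours after lights on). The study asks how chronic stress acts on gene expression across brain regions and blood in this model, in 1 sex and 1 strain. Prefrontal cortex and hypothalamus of the same 16 animals are used below only to test whether a difference was larger or smaller in hippocampus.

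The hippocampus holds the granule cells of the dentate gyrus and the pyramidal cells of fields CA1 to CA3, and it supports spatial and episodic memory. It is rich in receptors for corticosterone, the main glucocorticoid of mice. The glucocorticoid receptor (Nr3c1) and the mineralocorticoid receptor (Nr3c2) are transcription factors that enter the nucleus when they bind the hormone, attach to response elements in DNA, and raise or lower the transcription of nearby genes. The hippocampus is also known for feedback inhibition of the stress axis, for neurogenesis in the adult dentate gyrus, and for loss of dendrites and altered synaptic genes in rodents under repeated stress.

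The levels below are on the log2 scale of the deposited table, which the authors had normalized between libraries, so a difference of 1 is a doubling. Whether they were corrected for gene length is not given, and levels are therefore compared within a gene only. The median over the table was 4.41 and its lowest value 0.174, so no gene was listed at 0. Markers of the tissue were present in all 16 libraries: Prox1 of dentate granule cells ran from 5.27 to 5.95 and Fibcd1 of CA1 from 4.89 to 5.79. In the separately normalized tables of prefrontal cortex and hypothalamus their medians were 4.24 and 4.66 for Prox1 and 3.55 and 3.26 for Fibcd1, below every hippocampus library. C1ql2, another granule cell gene, did not separate hippocampus from hypothalamus (medians 5.36 and 5.80).

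UCMS replicate 3 stood apart from the other 15 libraries. Its median absolute deviation from the median library was 0.3065, against 0.0640 to 0.125 in the others, and it was the highest or the lowest of the 16 libraries in 8299 of 14015 genes tested (59.2%). Its deviations followed the GC content of the transcripts, with a Spearman rho of 0.71 across 13237 genes, which are not independent replicates. In the eighth of genes with the lowest GC content its median deviation was -0.545, and in the eighth with the highest it was 0.417. Values without this library, and for some lists after each library was corrected for GC content, are therefore given below where they differ or where the result is a main one, and the correction was chosen after the data were seen. Hemoglobin genes were high in control replicates 1 and 7 and UCMS replicate 6, with red cell list means of 11.4, 11.5 and 11.6 against 5.37 to 7.70 in the rest. Choroid plexus genes were high in control replicates 5, 6 and 8 and UCMS replicates 2 and 3, with list means of 5.42 to 6.99 against 3.38 to 4.55.

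**Figure D1:**
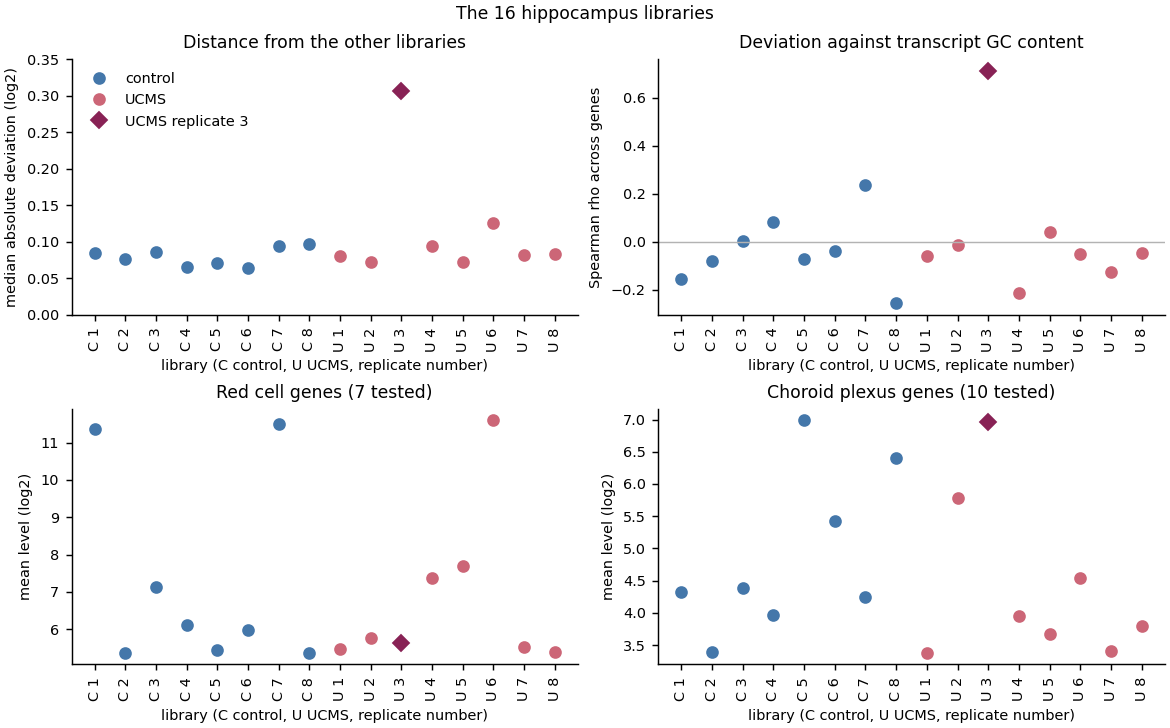
Per library, for 8 control (C) and 8 UCMS (U) hippocampus libraries: median absolute deviation from the median library, Spearman rho of the deviation against transcript GC content, and mean log2 level of the red cell and the choroid plexus genes. UCMS replicate 3 (diamond) lies at 0.3065 and 0.71 in the upper panels, and libraries of both groups are high in the lower panels.

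**Figure D2:**
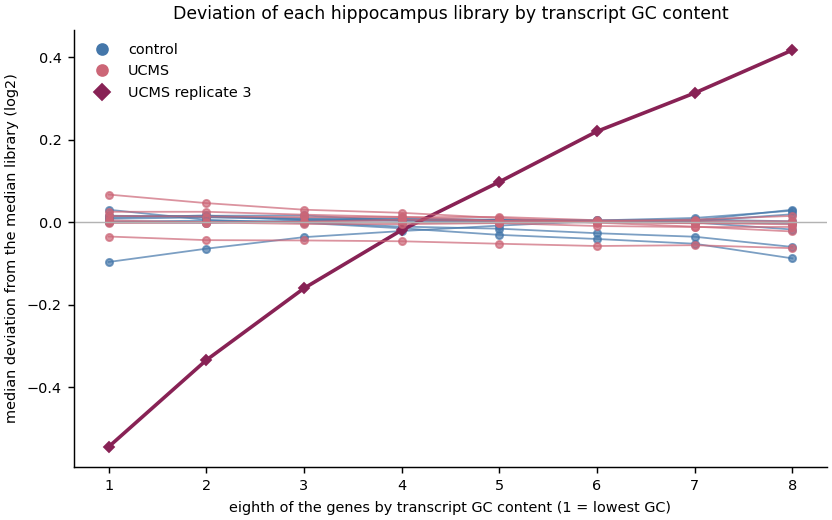
Median log2 deviation of each library from the median library (vertical) in 8 equal parts of the genes ordered by transcript GC content (horizontal). The line of UCMS replicate 3 runs from -0.545 to 0.417, and the other 15 lines stay between -0.0968 and 0.0668.

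No gene differed between UCMS and control hippocampus after adjustment. Of 14015 genes tested, 0 (0%) had an adjusted p under 0.05 with limma and the Benjamini-Hochberg method, and the smallest adjusted p was 0.990. At an unadjusted p under 0.05 there were 414 genes (2.95%), 234 higher (1.67%) and 180 lower (1.28%) in UCMS, fewer than the 701 that 5% of the tests would give. An exact rank-sum test gave 562 genes at an unadjusted p under 0.05 and a smallest adjusted p of 1. No gene had groups that did not overlap. The median standard error of a difference was 0.0831, and without UCMS replicate 3 it was 0.0682. Without that library 583 genes had an unadjusted p under 0.05, 315 of them higher, again with 0 after adjustment. The 2 sets shared 284 genes, 68.6% of the first and 48.7% of the second. The genes below are named by their order or their role, and every difference is given as a measurement that did not pass the adjusted threshold.

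Sirt4, a mitochondrial sirtuin that limits the use of glutamine and fatty acids, had the smallest p of all genes. Its level ran from 3.59 to 4.03 in control (median 3.81) and from 3.99 to 4.26 in UCMS (median 4.14). All 8 UCMS libraries lay above the control median and 6 lay above the highest control, so the groups overlapped in 1 control and 2 UCMS libraries. The difference was 0.32 ± 0.0644 (standard error, SE), 1.25-fold, with an unadjusted p of 0.000106 and an adjusted p of 0.990 by limma. Without UCMS replicate 3 it was 0.31, and after GC correction 0.30. In those runs, and without the hemoglobin-rich libraries, other genes had the smallest p. The gene lies on chr5:115478010-115484725, minus strand (GRCm38, GENCODE M21). The other 6 sirtuins were tested as well, and none had an unadjusted p under 0.05: the differences of the other mitochondrial members were 0.03 ± 0.0617 for Sirt3 and 0.04 ± 0.0902 for Sirt5, and that of Sirt1, a nuclear deacetylase, was -0.05 ± 0.103.

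Among the 15 genes with the smallest p in the higher direction were parts of the microtubule transport machinery. Klc3, a kinesin light chain that links cargo to the kinesin motor, ran from 3.86 to 4.38 in control (median 4.08) and from 4.03 to 4.88 in UCMS (median 4.51). Of 8 UCMS libraries 5 lay above the highest control. The difference was 0.38 ± 0.105 (unadjusted p 0.00209) and 0.32 without UCMS replicate 3, which was its highest library. Klc3 (chr7:19394437-19404104) overlaps the gene Ercc2 on the other strand by 1258 bases, and whether reads were counted by strand is not given. Ercc2 itself had a difference of 0.02 ± 0.0898. Of the genes named below, Ina, Naif1, Rarb, Cebpd, Bcl6 and Cyp51 also overlap a protein-coding gene on the other strand, so the same limit holds for them. Dync1h1, the heavy chain of the dynein motor that carries cargo toward the cell body, ran from 7.19 to 7.38 in control (median 7.30) and from 7.32 to 7.65 in UCMS (median 7.48), with a difference of 0.18 ± 0.0495. All 8 UCMS libraries lay above its control median and 6 above its highest control. The whole list of 20 dynein and kinesin genes had 12 members higher (60%), where 50.1% of all tested genes were, and a median difference of 0.0224. At an unadjusted p under 0.05 were 2 members (10%), against 2.95% of all tested genes. These are Klc3 and Dync1h1, already picked above for their small p. Without UCMS replicate 3 there were 14 higher, 4 at an unadjusted p under 0.05, with a median of 0.0351. In that run 4.16% of all tested genes had such a p. The median was 0.00584 without UCMS replicate 4 and 0.00728 without control replicate 7. Ina, an intermediate filament of neurons, was higher by 0.14 ± 0.0448, with 8 of 8 UCMS libraries above the control median.

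The higher direction also held genes of several other roles. Naif1, a nuclear protein that induces apoptosis when overexpressed, ran from 4.08 to 4.49 in control (median 4.29) and from 4.34 to 4.71 in UCMS (median 4.57), a difference of 0.27 ± 0.0703. Its 3 lowest UCMS libraries lay inside the control range. Zfpm2, a zinc finger partner of GATA factors, was higher by 0.24 ± 0.0688, with 8 of 8 UCMS libraries above the control median. Trrap and Ep400, subunits of histone acetyltransferase and remodelling complexes, were higher by 0.15 ± 0.0484 and 0.13 ± 0.0408. For Ep400, 7 of 8 UCMS libraries exceeded the highest control. Usp19, a deubiquitinase, was higher by 0.12 ± 0.0390, and by 0.08 after GC correction, with an unadjusted p of 0.0830. Each of these differences was small beside a doubling, and the ranges of the groups overlapped for all of them.

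In the lower direction Cep41, a centrosomal and ciliary protein needed for the glutamylation of tubulin, had the smallest p. It ran from 4.58 to 5.17 in control (median 4.95) and from 4.13 to 4.71 in UCMS (median 4.58), and 8 of 8 UCMS libraries lay below the control median. The difference was -0.39 ± 0.0966 (unadjusted p 0.000953), and -0.33 without UCMS replicate 3, its lowest library. Lsm1, which binds the ends of mRNAs and starts their decapping, ran from 4.08 to 4.46 in control (median 4.33) and from 3.89 to 4.28 in UCMS (median 4.10), a difference of -0.25 ± 0.0667. Thumpd1, a partner of the tRNA acetylation enzyme, was lower by 0.21 on the log2 scale (SE 0.0594) and Rpp14, listed as a subunit of ribonuclease P, by 0.21 (SE 0.0604). Armcx1, a mitochondrial protein of neurons, was below the lowest control in 7 of 8 UCMS libraries, with a difference of -0.20 ± 0.0536.

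Several genes in the lower direction are also expressed outside neurons. Gpc3, a cell surface proteoglycan, had a difference of -0.53 ± 0.155, Ccl28, a chemokine of epithelia, one of -0.50 ± 0.150, and Car13, a carbonic anhydrase, one of -0.48 ± 0.146. All 8 UCMS libraries lay below the control median for each of them. Without UCMS replicate 3 the differences were -0.57, -0.41 and -0.54. Rarb, a retinoic acid receptor high in striatum, had a difference of -0.39 ± 0.113, and 6 of 8 UCMS libraries lay below its lowest control. The largest difference among named genes at an unadjusted p under 0.05 was that of Zfp185, -0.60 ± 0.199, with levels of 2.79 to 4.10 in control and 2.38 to 3.81 in UCMS. In bulk tissue, fewer cells of a type and less RNA per cell cannot be told apart for any of these genes.

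**Figure D3:**
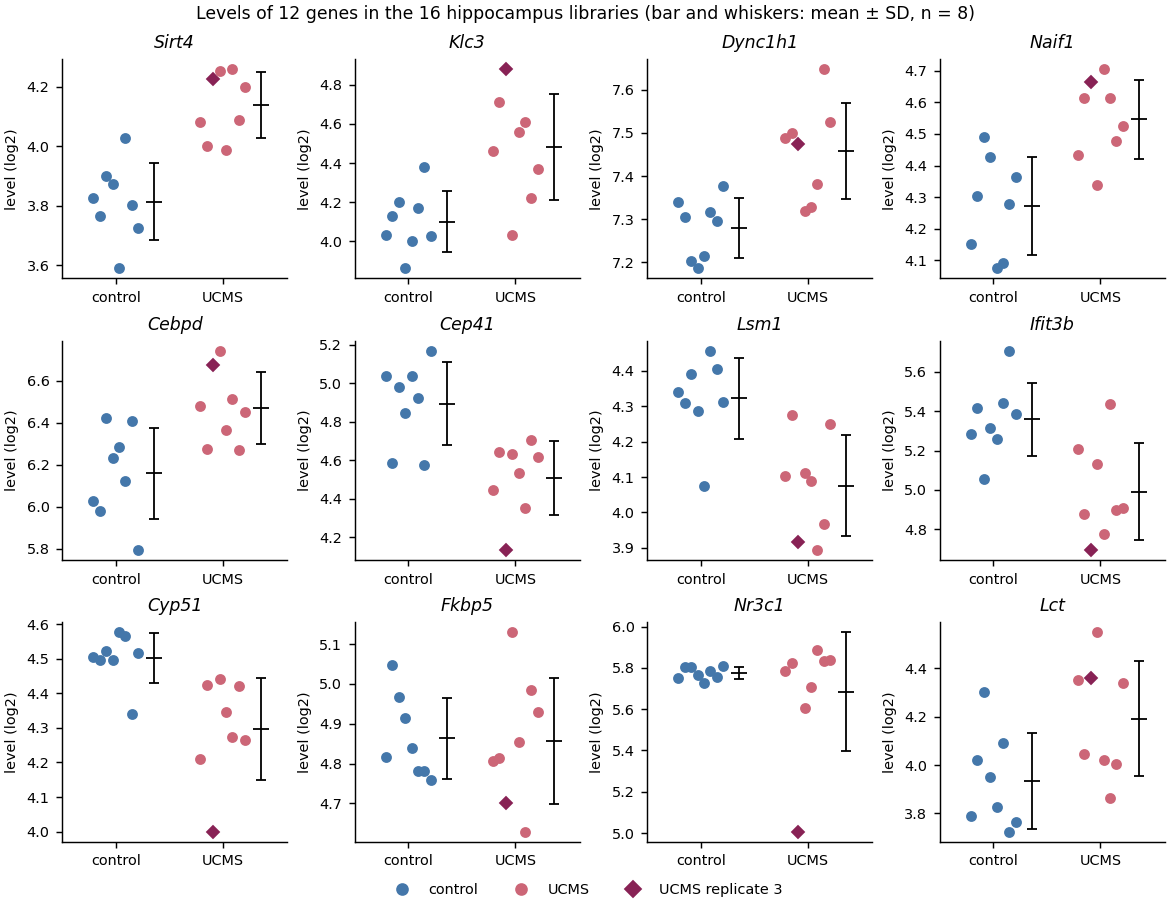
Log2 level (vertical) of 12 genes in each control and UCMS hippocampus library, with mean ± SD (n = 8) beside the points. Sirt4, Klc3, Dync1h1, Naif1 and Cebpd sit higher in UCMS, Cep41, Lsm1, Ifit3b and Cyp51 lower, Fkbp5 overlaps, and for Nr3c1 UCMS replicate 3 (diamond) lies at 5.01, below the other 15 libraries.

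The targets of the glucocorticoid receptor were read from a list of 32 genes that corticosteroids are known to induce in brain or other tissues. Of 30 tested members 27 were higher in UCMS, where 50.1% of all tested genes were, and the median difference was 0.0968 against 0.000375 over all genes. At an unadjusted p under 0.05 by limma, 5 members were higher and 0 lower, and 0 passed the adjusted threshold. The 5 were 16.7% of the tested members, against 2.95% of all tested genes. The list mean ran from 5.20 to 5.38 in control and from 5.26 to 5.67 in UCMS. Of the UCMS libraries 7 lay above the control median and replicate 3 was the highest. Without that library 26 members were higher, the median was 0.0637 and 4 members had an unadjusted p under 0.05. In that run 4.16% of all tested genes had such a p. Corrected for GC content, 27 members were higher with a median of 0.0979. Without the hemoglobin-rich libraries and UCMS replicate 3 together, 25 members were higher with a median of 0.0503. The members respond to one hormone and are correlated between libraries, so their count is not a count of independent observations.

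Cebpd, a transcription factor that glucocorticoids and inflammation induce, ran from 5.80 to 6.42 in control (median 6.18) and from 6.27 to 6.74 in UCMS (median 6.47). All 8 UCMS libraries lay above the control median and 5 above the highest control. The difference was 0.31 ± 0.0932 (unadjusted p 0.00370), and 0.28 without UCMS replicate 3. Bcl6, a transcriptional repressor, was higher by 0.16 ± 0.0602, with 7 of 8 UCMS libraries above the control median. Fam107a, an actin-binding protein that stress and glucocorticoids induce in hippocampus, ran from 7.63 to 7.88 in control and from 7.80 to 8.05 in UCMS, a difference of 0.11 ± 0.0466 with 8 of 8 UCMS libraries above the control median. The other 2 at an unadjusted p under 0.05, named after their values were seen, were Plin4, a lipid droplet protein (0.43 ± 0.176, and 0.36 with an unadjusted p of 0.0584 without UCMS replicate 3), and Zbtb16, a zinc finger repressor (0.15 ± 0.0653, and 0.12 with an unadjusted p of 0.0970 after GC correction).

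Other well-known targets differed less. Fkbp5, a co-chaperone that lowers the affinity of the receptor for its hormone, ran from 4.76 to 5.05 in control (median 4.83) and from 4.63 to 5.13 in UCMS (median 4.83), a difference of -0.01 ± 0.0671. Tsc22d3, the glucocorticoid-induced leucine zipper, had a difference of 0.05 ± 0.0980, and Per1, a clock gene with a response element, one of 0.08 ± 0.0792 that was 0.00436 without UCMS replicate 3. Sgk1, a kinase that both receptors induce, ran from 4.48 to 5.05 in control and from 4.46 to 5.34 in UCMS, a difference of 0.20 ± 0.128. For Per1 the control range, 4.72 to 4.87, lay inside the UCMS range of 4.62 to 5.37, whose highest library was replicate 3. The groups of all 4 genes overlapped.

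Response elements of the receptor are built from a pair of sites that mirror each other around 3 bases. The pattern GNACA, 3 bases of any kind, then TGTNC, which reads the same on both strands, was searched in the promoter windows of RefSeq genes (GRCm38.p6, 300 bases, from 250 before to 50 after the start). It was found in 156 of 32851 windows (0.475%), which belong to 145 of 27025 genes (0.537%). Of the 32 list genes 27 matched the promoter table, and 4 of them held the pattern: Txnip, Mt1, Sgk1 (1 of its 6 promoters) and Fam107a (2 of its 3). Their 250 bases upstream of the start are printed below because they show where the pattern lies, with the pattern in capitals and each sequence 5′ to 3′ in the direction of the gene. They are Txnip at chr3:96557707-96557956 (plus strand), Mt1 at chr8:94178839-94179088 (plus), Sgk1 at chr10:21993640-21993889 (plus) and Fam107a at chr14:8309780-8310029 (minus).
Txnip: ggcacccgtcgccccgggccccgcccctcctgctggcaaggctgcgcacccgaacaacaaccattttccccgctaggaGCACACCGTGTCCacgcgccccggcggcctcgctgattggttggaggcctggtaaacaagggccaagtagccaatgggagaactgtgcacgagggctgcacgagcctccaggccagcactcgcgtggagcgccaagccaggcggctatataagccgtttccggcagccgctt
Mt1: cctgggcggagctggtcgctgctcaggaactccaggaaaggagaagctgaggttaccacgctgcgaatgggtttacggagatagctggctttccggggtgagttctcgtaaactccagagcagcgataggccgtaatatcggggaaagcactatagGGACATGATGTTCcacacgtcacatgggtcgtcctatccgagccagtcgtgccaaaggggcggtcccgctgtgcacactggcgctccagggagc
Sgk1: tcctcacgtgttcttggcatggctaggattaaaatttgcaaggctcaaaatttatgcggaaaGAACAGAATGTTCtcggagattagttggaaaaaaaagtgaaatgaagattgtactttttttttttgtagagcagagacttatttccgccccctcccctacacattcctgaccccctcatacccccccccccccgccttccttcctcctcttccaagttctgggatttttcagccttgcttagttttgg
Fam107a: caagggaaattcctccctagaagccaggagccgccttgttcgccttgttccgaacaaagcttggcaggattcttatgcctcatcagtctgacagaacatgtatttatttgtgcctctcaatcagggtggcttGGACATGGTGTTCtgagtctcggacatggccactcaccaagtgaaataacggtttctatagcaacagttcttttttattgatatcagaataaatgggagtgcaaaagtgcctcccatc
The pattern begins 172, 94, 188 and 118 bases before the start of the 4 promoters in the order printed. Their hippocampal differences were -0.03 ± 0.104 for Txnip, 0.20 ± 0.132 for Mt1, a metal-binding protein, 0.20 ± 0.128 for Sgk1 and 0.11 ± 0.0466 for Fam107a. For Mt1 the difference was 0.07 without UCMS replicate 3, whose level of 9.34 was the highest of the 16 libraries. A match is a description of the letters, and list genes with and without it were not compared. Binding of the receptor was not measured.

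The receptors themselves and their chaperones showed no difference past any threshold. Nr3c1 ran from 5.73 to 5.81 in control (median 5.78) and from 5.01 to 5.88 in UCMS (median 5.80), a difference of -0.09 ± 0.0969. The value 5.01 belongs to UCMS replicate 3, without which the difference was 0.00661. Nr3c2 had a difference of 0.11 ± 0.0910, and 0.15 without that library. Of 15 tested genes of the list 8 were higher, with a median of 0.0124 and 0 at an unadjusted p under 0.05.

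Immediate early genes, which neurons switch on within minutes of activity, had 14 of 20 members higher and a median difference of 0.0521. Without UCMS replicate 3, 11 were higher with a median of 0.0178. For all tested genes the shares were 50.1% higher and 2.95% at an unadjusted p under 0.05 by limma. Arc, which tunes synaptic receptors, ran from 6.55 to 7.04 in control and from 6.50 to 7.20 in UCMS (0.11 ± 0.103). Fos had a difference of 0.05 ± 0.153, Egr1 one of 0.13 ± 0.0744 and Npas4 one of 0.03 ± 0.166. The 1 member at an unadjusted p under 0.05 was Klf4, a zinc finger factor, with levels of 3.36 to 3.90 in control and 3.32 to 3.72 in UCMS and a difference of -0.23 ± 0.0866. Among neurotrophins, Bdnf, the growth factor most studied in stress, ran from 4.53 to 5.46 in control (median 4.94) and from 4.70 to 5.27 in UCMS (median 5.05), a difference of 0.03 ± 0.121. Its receptor Ntrk2 was at 0.08 ± 0.0425. Ntrk3, the receptor of neurotrophin 3, was the 1 of 8 tested members at an unadjusted p under 0.05, with 0.12 ± 0.0484.

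Genes of dentate granule cells were mostly higher in UCMS, while the direction of genes of newborn neurons depended on the libraries used, and the difference between the lists was not tested. Of 14 tested dentate granule cell genes 13 were higher in UCMS, with a median of 0.0819. Of 13 genes of adult neurogenesis 4 were higher, with a median of -0.0499. Without UCMS replicate 3 these values were 13 and 0.0697, and 5 and -0.0321. Over all tested genes 50.1% were higher, the median was 0.000375, and 2.95% had an unadjusted p under 0.05 by limma. Genes of 1 cell type can vary together, so their counts are not taken as counts of independent observations. The neurogenesis median was -0.0132 without control replicate 1, -0.0159 without control replicate 7 and 0.0139 without the choroid-rich libraries. The granule cell median was 0.128 without control replicate 3 and 0.127 without UCMS replicate 6. In the other direction it was 0.065 without control replicate 8 and 0.0599 with the microglia list as a covariate. It was 0.0577 without UCMS replicate 3 with the choroid plexus covariate, and 0.022 with the granule cell list itself as a covariate. The granule cell median kept its sign in every alternative run, some of which could not change it. The granule cell list mean ran from 4.94 to 5.35 in control and from 5.004 to 5.36 in UCMS, and 7 of 8 UCMS libraries lay above the control median. Its 3 members at an unadjusted p under 0.05 were Maml2, a coactivator of Notch (0.20 ± 0.0750), Lct, the lactase gene that is used as a granule cell marker (0.26 ± 0.105), and Dsp, which codes for desmoplakin (0.24 ± 0.111, unadjusted p 0.0432, and 0.0501 without UCMS replicate 3). Prox1, the factor that keeps granule cell identity, had a difference of 0.06 ± 0.0980. Of the CA1 genes 6 of 10 were higher, 1 at an unadjusted p under 0.05: Lefty1, a secreted antagonist of Nodal, ran from 4.11 to 4.83 in control and from 4.55 to 4.94 in UCMS (0.28 ± 0.0974). Of 13 CA2 and CA3 genes 8 were higher and 0 had an unadjusted p under 0.05. Dcx, which marks immature neurons, ran from 4.78 to 5.28 in control and from 4.09 to 5.04 in UCMS. Its difference of -0.14 ± 0.117 became -0.03 without UCMS replicate 3, its lowest library.

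Transmission genes showed small differences. The shares over all tested genes were 50.1% higher and 2.95% at an unadjusted p under 0.05 by limma. Of 15 ionotropic glutamate receptor subunits 10 were higher, 0 at an unadjusted p under 0.05, with a median of 0.0384. Grin2a and Grin2b, the NMDA receptor subunits that set channel kinetics, were at 0.13 ± 0.0692 and 0.12 ± 0.0695, and without UCMS replicate 3 at 0.15 and 0.16 with unadjusted p values of 0.0490 and 0.0208. Of 12 GABA-A receptor subunits 3 were higher, with a median of -0.0623, but without UCMS replicate 3 there were 7 higher and the median was 0.00456, so the direction rested on 1 library. The list mean of that library was 5.13 and those of the others were 5.36 to 5.599. Gad1, which makes GABA, had a difference of -0.06 ± 0.0441. The interneuron peptides and markers Pvalb, Sst and Npy were at -0.09 ± 0.0800, 0.07 ± 0.0954 and -0.14 ± 0.0887, and Npy was at -0.19 with an unadjusted p of 0.0238 without UCMS replicate 3. Among 20 receptors of serotonin, dopamine and noradrenaline 9 were higher. Htr3a, a serotonin-gated channel of interneurons, ran from 3.06 to 3.75 in control and from 2.57 to 3.33 in UCMS (-0.30 ± 0.122), the 1 member at an unadjusted p under 0.05. Htr1a was at -0.02 ± 0.109 and Drd1 at -0.17 ± 0.131. The 21 presynaptic vesicle genes had 9 members higher and a median of -0.00900.

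Most microglia genes were higher in UCMS, and fewer of them without UCMS replicate 3. Of 15 microglia genes 13 were higher with a median of 0.0675, and without that library 10 with a median of 0.0316. Without the hemoglobin-rich libraries as well, 8 were higher with a median of 0.0158. Over all tested genes 50.1% were higher with all 16 libraries, and 7122 of 13926 were in that last run. The share of all tested genes at an unadjusted p under 0.05 by limma was 2.95% with all 16 libraries. With library weights the microglia median was -0.00116, and without UCMS replicate 4 it was 0.0299. C1qb, a complement component made by microglia, ran from 4.50 to 5.02 in control and from 4.68 to 5.54 in UCMS (0.26 ± 0.119), and was at 0.19 without the library, with an unadjusted p of 0.0827. Of 18 astrocyte genes 10 were higher with a median of 0.0427, which was -0.000125 without the library. Gfap, the filament of astrocytes, was at 0.21 ± 0.121, and 0.12 without the library. Of 15 myelin genes 10 were higher with a median of 0.0354, and Mbp was at 0.09 ± 0.0859, but without the hemoglobin-rich libraries the myelin median was -0.0333. Of 11 oligodendrocyte precursor genes 7 were higher with a median of 0.0390, but without the hemoglobin-rich libraries 5 were higher with a median of -0.0105, and without UCMS replicate 3 as well 2 with a median of -0.0340, so the list had no stable direction. Its 1 member at an unadjusted p under 0.05 with all 16 libraries was Cspg4, a proteoglycan of these cells, at 0.23 ± 0.0918. Of 16 endothelial and pericyte genes 7 were higher.

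Genes of tissues next to the hippocampus had wide ranges in both groups, and 0 of them passed the adjusted threshold. Among all tested genes 50.1% were higher in UCMS, and 2.95% had an unadjusted p under 0.05 by limma. All 10 tested choroid plexus genes were lower in UCMS, with a median of -0.349 and 0 at an unadjusted p under 0.05. Their list mean ran from 3.39 to 6.99 in control and from 3.38 to 6.97 in UCMS, and without UCMS replicate 3 the median over 8 tested members was -0.610. Without control replicate 5 the choroid plexus median was -0.0665. Ttr, the thyroid hormone carrier of the choroid plexus, ran from 4.85 to 12.2 in control and from 4.90 to 12.8 in UCMS, a difference of -1.05 ± 1.23. Of 8 meningeal and fibroblast genes 7 were lower, with a median of -0.144, list means of 4.86 to 5.33 in control and 4.55 to 5.27 in UCMS, and 2 members at an unadjusted p under 0.05: Dcn, the proteoglycan decorin (-0.35 ± 0.151), and Ogn, osteoglycin (-0.33 ± 0.144). After GC correction Dcn was at -0.28 with an unadjusted p of 0.170 and Ogn at -0.25 with one of 0.0735, and without UCMS replicate 3 Ogn was at -0.26 with one of 0.0743. All 7 red cell genes were lower, with a median of -0.593, and without the hemoglobin-rich libraries their median was 0.212. Thalamic genes had 4 of 12 members higher and striatal genes 4 of 11, and without UCMS replicate 3 their medians were -0.0329 and -0.111 (after GC correction 0.00149 and -0.0732). The part of these neighbouring tissues in the differences of Gpc3, Ccl28, Car13 and Rarb was not tested. With the choroid plexus list as a covariate those differences were -0.47, -0.53, -0.44 and -0.39. That covariate does not cover meningeal, thalamic or striatal tissue.

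Most tested genes of oxidative phosphorylation, of the proteasome and of ribosomal proteins were lower in UCMS, by small amounts. Of 39 nuclear genes of oxidative phosphorylation 32 were lower, with a median of -0.0494, and without UCMS replicate 3 there were 37 lower with a median of -0.0483. After GC correction 33 were lower with a median of -0.0513. Over all tested genes 6990 of 14015 were lower. The list mean ran from 6.65 to 6.82 in control and from 6.66 to 6.79 in UCMS, and 2 of 8 UCMS libraries lay above the control median. Cox6c, a subunit of cytochrome c oxidase, ran from 7.34 to 7.55 in control and from 7.13 to 7.44 in UCMS (-0.12 ± 0.0459), and Atp5c1, the gamma subunit of ATP synthase, was at -0.09 ± 0.0405. Of 27 proteasome subunits 22 were lower with a median of -0.0467, and 1 of 8 UCMS list means lay above the control median. Without UCMS replicate 3 there were 20 lower with a median of -0.0217, and without the hemoglobin-rich libraries as well 16 with a median of -0.0203. Psma6, a ring subunit of the core particle, was at -0.13 ± 0.0561. Of 34 ribosomal protein genes 24 were lower with a median of -0.0254, and 32 without UCMS replicate 3 with a median of -0.0461. Members of 1 complex can vary together, so their counts are not taken as counts of independent observations. Of 19 cholesterol synthesis genes 9 were higher. Cyp51, the lanosterol demethylase of that pathway, ran from 4.34 to 4.58 in control (median 4.51) and from 4 to 4.44 in UCMS (median 4.31), with 8 of 8 UCMS libraries below the control median and a difference of -0.20 ± 0.0606.

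Cell death genes showed no common direction: 13 of 25 pro-apoptotic and 7 of 15 anti-apoptotic genes were higher, beside 50.1% of all tested genes. Bcl2l11, which codes for the BH3 protein Bim, ran from 5.72 to 6.05 in control and from 5.18 to 5.81 in UCMS, with 6 of 8 UCMS libraries below the lowest control and a difference of -0.23 ± 0.0792. Bax and Bcl2 were at 0.04 ± 0.0754 and -0.09 ± 0.0847. The 22 clock genes had 15 higher and 0 at an unadjusted p under 0.05, and the 28 heat shock and unfolded protein genes had 13 higher and 0. Of 11 interferon-stimulated genes 9 were lower, with a median of -0.109. Without the hemoglobin-rich libraries and UCMS replicate 3, 5 of 10 were lower with a median of -0.0472, and with the dentate granule cell list as a covariate the median was 0.0419. Ifit3b, an interferon-induced inhibitor of viral RNA translation, ran from 5.06 to 5.71 in control (median 5.35) and from 4.70 to 5.44 in UCMS (median 4.90), a difference of -0.37 ± 0.103. Its reads may be shared with the near-identical Ifit3, which was at -0.11 in the same test. The interferon list means were 4.97, 5.05 and 5.09 in the 3 hemoglobin-rich libraries and 3.79 to 4.25 in the others, and without these 3 libraries Ifit3b was at -0.38.

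Whether a difference was larger or smaller in hippocampus than elsewhere was tested on within-animal differences between regions. Against prefrontal cortex 221 of 13712 genes (1.61%) had an unadjusted p under 0.05, and against hypothalamus 310 of 13694 (2.26%). After adjustment by limma 0 genes passed in either, and the smallest adjusted p values were 0.352 and 1. No stress difference can therefore be called particular to hippocampus.

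Lsm1 had the smallest p against prefrontal cortex. It was lower in UCMS hippocampus, and in prefrontal cortex its level ran from 3.59 to 4.11 in control (median 3.85) and from 3.86 to 4.34 in UCMS (median 4.05), a difference of 0.23 ± 0.0782. In hypothalamus the difference was -0.09 ± 0.0704. The hippocampus difference exceeded the cortical one by -0.47 with an adjusted p of 0.352. Aven, an inhibitor of apoptosis, had the same pattern, with -0.27 ± 0.0885 in hippocampus, 0.24 ± 0.107 in prefrontal cortex and 0.00163 ± 0.0785 in hypothalamus. For Aven the hippocampus difference exceeded the cortical one by -0.51, with an unadjusted p of 0.000288 by limma, and did not pass the adjusted threshold. The 2 genes stood higher in UCMS cortex and lower in UCMS hippocampus. They were picked by the smallest p of the test against prefrontal cortex, a choice that favours such opposite directions.

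Klc3 and Sirt4 had positive differences in hippocampus and negative ones in both other regions, where none had an unadjusted p under 0.05 by limma. Both were among the genes with the smallest p against hypothalamus, and Klc3 also against prefrontal cortex. Such a choice favours opposite directions. Klc3 had differences of -0.07 ± 0.0840 in prefrontal cortex and -0.12 ± 0.0811 in hypothalamus, and Sirt4 of -0.06 ± 0.122 and -0.12 ± 0.0770. For Klc3 the hippocampus difference exceeded these by 0.45 and 0.51, and for Sirt4 by 0.38 and 0.45, with adjusted p values of 1 by limma in all 4 tests. Cep41 was at 0.03 ± 0.111 and -0.06 ± 0.0943 in the other regions, and Dync1h1 at -0.00162 ± 0.0985 and 0.13 ± 0.0835. The glucocorticoid-induced list was higher in the other regions too: 22 of 29 members in prefrontal cortex with a median of 0.0866, and 26 of 30 in hypothalamus with a median of 0.106. The regions come from the same animals and are not separate evidence. The granule cell list had a median of 0.00150 in prefrontal cortex and 0.00475 in hypothalamus, and oxidative phosphorylation genes one of 0.00875 and -0.0139. The median of their between-region differences was not tested.

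**Figure D4:**
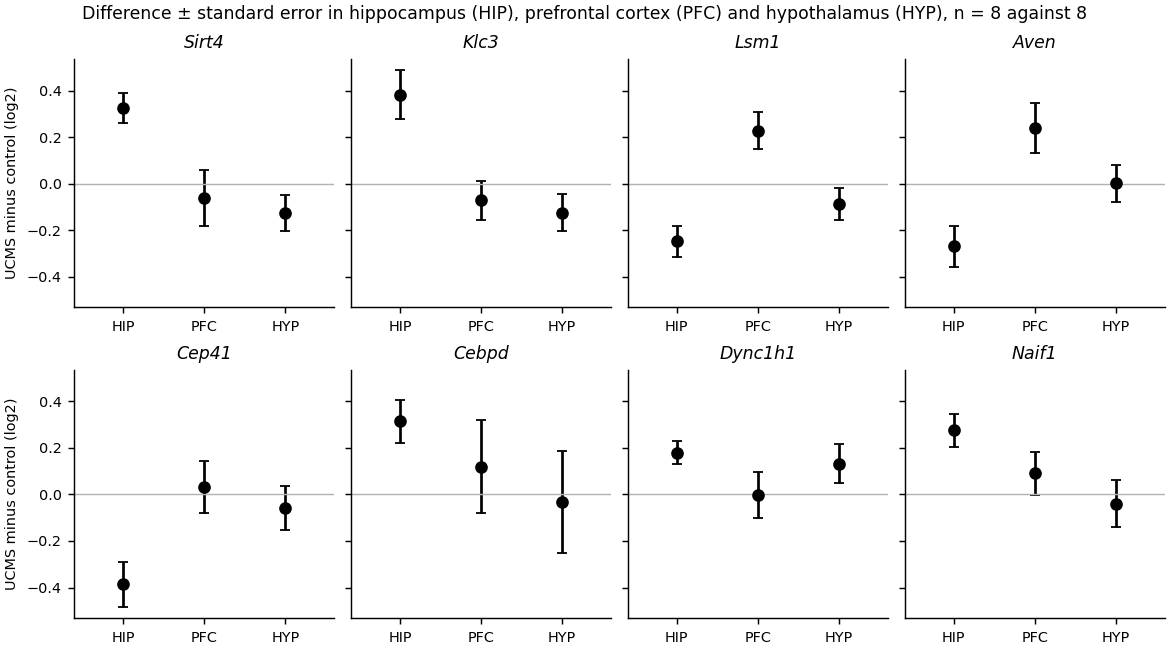
Difference between UCMS and control ± SE on the log2 scale (vertical, n = 8 against 8) for 8 genes in hippocampus, prefrontal cortex and hypothalamus (horizontal). Sirt4 and Klc3 lie above 0 in hippocampus and below 0 in the other regions, and Lsm1 and Aven lie below 0 in hippocampus and above 0 in prefrontal cortex.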

How the data were processed

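Total RNA from hippocampus of 16 animals, 1 library each, was depleted of ribosomal RNA and made into directional libraries from 100 ng, per the labels' protocols. Per the submitters' processing notes, reads were placed on GRCm38.p4. The aligner, the counter, their annotation and filters, and whether strand was used, are steps not given in the sources used here. Values in the table deposited by the authors were read as log2 levels, quantile normalized between libraries. Both steps were inferred from the values: at 89.4% of ranks all libraries were equal within 0.002. Such values keep no library depth, so depth is unknown and counting error could not be computed. The table had 115 genes without a symbol and 0 columns without a sample.

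Groups follow the labels. The members of the comparison, the gene lists (36, with 649 symbols, 610 in the table) and the named genes were chosen with earlier results of these data known. The deposited levels were fitted gene by gene with limma 3.58.1 (R 4.3.3) using a trended prior variance, two-sided, with Benjamini-Hochberg adjustment at 0.05; the 10% of genes lowest in mean level were not tested. Between-region tests used the within-animal difference of levels and the genes tested in both tables. Lists are described by counts and medians without a set test. The limma fit was tested on simulated levels, drawn independently for each gene and library, with known changes in some genes. Those draws held no library skewed by GC content. Named genes are a selection from the 15 higher and 15 lower genes with the smallest unadjusted p, the 8 with the largest difference at an unadjusted p under 0.05, up to 3 members of each list with the smallest p, 5 for each region and a fixed set of stress, synaptic and apoptosis genes, beside the genes whose promoter held the pattern. Genes without a proper symbol were passed over, and an item of the fixed set is not reported here. Ercc2 and Ifit3 were added because the former overlaps Klc3 and the latter is nearly identical to Ifit3b. GC content is that of the longest transcript in GENCODE M21, for 94.4% of tested genes, and the correction subtracted a lowess curve (span 0.3) of each library's deviation on it. Alternatives varied the filter, prior, weights, scaling, covariates and libraries.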

Additional observations from a re-analysis of the deposited data

Results flagged for a closer look

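In each group of 8 libraries the highest or lowest value was set against the next by Dixon's criterion, which chance meets in about 1 of 20 groups. Of 160 groups of values examined (78 genes of the text in 2 groups, and 2 measures of the libraries in 2 groups), 18 met it, and 11 of these were UCMS replicate 3. That library was apart in its median absolute deviation (0.3065) and in the Spearman rho of its deviation with GC content (0.714). Among genes it was the lowest UCMS library for Nr3c1 (5.01), Dcx (4.09) and Sirt1 (3.46), and the highest for Mt1 (9.34), Sst (8.51), Ntrk2 (6.99), Per1 (5.37), Sirt3 (5.21) and Cspg4 (4.41). Without it the difference of Sst went from 0.07 to -0.01, that of Cspg4 from 0.23 to 0.17, that of Ntrk2 from 0.08 to 0.05, that of Sirt3 from 0.03 to -0.02 and that of Sirt1 from -0.05 to 0.04.

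Other libraries stood apart for single genes. UCMS replicate 7 was lowest for Gpc3 (2.36) and UCMS replicate 4 highest for Lefty1 (4.94). Control replicate 4 was highest for Bcl2l11 (6.05), control replicate 3 highest for Prox1 (5.95), control replicate 5 lowest for Lsm1 (4.08), control replicate 7 lowest for Cyp51 (4.34) and control replicate 2 lowest for Klf4 (3.36).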

How the results depend on the processing

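In all 39 alternatives to the hippocampus test, and in the 6 of each between-region test, 0 genes passed the adjusted threshold. The 414 genes at an unadjusted p under 0.05 became 927 with library weights, of which UCMS replicate 3 had the lowest (0.093), 669 with the choroid plexus list as a covariate, 1082 when the covariate was the meningeal list, and 690 when UCMS replicate 3 and the hemoglobin-rich libraries were left out. Leaving out 1 library at a time gave 336 (without control replicate 1) to 688 (without UCMS replicate 6, where 459 were higher). Without the libraries skewed by GC content, UCMS replicate 3 of hippocampus and, for the first, UCMS replicate 5 of prefrontal cortex, whose rho with GC content was also 0.71, the between-region counts of 221 and 310 became 416 and 495. The causes were not tested. Covariates other than red cell, choroid plexus and myelin genes, the GC corrections and joint exclusions were chosen after the data were seen. With the replicate number as a block, the counts were 387 in hippocampus, 246 against prefrontal cortex and 375 against hypothalamus. Same-numbered libraries correlated by -0.37 to 0.51, and 0 of 8 numbers paired best with their own number, so the samples share a number only. Of 36 list medians 10 kept their sign in all 38 alternatives fitted to them, and of 77 named gene differences 57 did. Some of these alternatives could not change a gene's difference. The prior settings, the replicate block and the filters leave it as it is. Leaving out the BS animal and leaving out UCMS replicate 8 are the same run, counted under each name. Depth is unknown, so precision rests on the 8 animals per group alone.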
